A study of Mus musculus with 5 samples.

Results

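The genes described here are 39 transcripts of the cell division cycle, 17 that act when DNA is copied in S phase and 22 that act in G2 phase and mitosis. They were followed in epithelial tumour cells of the mouse prostate on 5 Affymetrix arrays. A probe set, the group of short oligonucleotides that measures 1 transcript on such an array, was taken as a member when its only gene symbol was one of the 39. This gave 85 of the 45037 probe sets of the table, 44 for all 17 replication genes and 41 for 21 of the 22 mitotic genes. The annotation table used here names no probe set for Ccnb1, cyclin B1, which therefore has no value. The 38 genes measured stand among 18193 genes in all. A gene with more than 1 probe set was represented by the one with the highest mean over the 5 arrays, and 27 of the 38 had more than 1.

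Both groups were C57BL/6 mice in which the Probasin promoter, active in prostate epithelium, drives deletion of floxed alleles that include Smad4. The 3 nDKO mice carried these alleles alone and were 15.86, 10.71 and 10.71 weeks old. The 2 nTKO mice carried floxed Pygo2 in addition and were 31.43 and 16 weeks old, so age and genotype are partly confounded. Pygo2 encodes a PHD-finger co-activator of beta-catenin, and the design compares tumour cells with and without it. Tumours were dissociated and the cells taken with beads against Epcam, a surface protein of epithelial cells (the labels write Epicam), before RNA was extracted. Each array is 1 mouse, and mice are numbered as in the labels.

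Dividing cells make these transcripts in waves. E2F factors switch on the replication genes near the start of S phase, and the MCM helicase, clamp, polymerase and nucleotide enzymes they encode copy the DNA. The MuvB complex, with B-Myb and Foxm1, switches on the mitotic genes later, and their products condense, attach, check and separate the chromosomes. In quiescent cells the DREAM complex holds both sets down, so their summed level in a tissue is widely used as a measure of how many cells are cycling. In RNA of a whole cell population, fewer cycling cells and less of these transcripts per cycling cell cannot be told apart.

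The values are log2 signals, so that a difference of 1 is a doubling, and array medians lay between 4.94 and 4.98. Epcam was at 12.94, 13.48 and 13.35 in nDKO cells and at 13.24 and 13.41 in nTKO cells, and all 6 epithelial markers lay above the array median on every array. Pygo2 was at 8.65, 8.62 and 8.72 in nDKO cells and at 7.30 and 6.35 in nTKO cells, so the groups do not overlap (log2 difference -1.84, SE 0.30, limma adjusted p = 0.853). Whether its probe set lies in the deleted part was not tested. Smad4, floxed in both groups, kept signal on all arrays and differed by 0.27. The arrays nDKO 1 and nTKO 1 stand apart from the others by squamous keratins, for example Krt10 at 13.03 and 13.04 against 6.93, 6.71 and 6.90. Each comparison was therefore also made without both of these arrays.

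The control regions of the members are shown first, because replication and mitotic genes differ in them. The part of the motifs in the values below was not tested. RefSeq promoter windows of GRCm38.p6, 250 bases before to 50 after an annotated start, existed for 32 of the 39 genes (33 windows). The search covered both strands for 3 motifs, an E2F site as TTTCGCGC or TTTGGCGC, the CHR element bound by MuvB as TTTGAA, and the CCAAT box bound by NF-Y as CCAAT. Matches that share bases were counted separately. The E2F site was in 6 of 15 windows of replication genes (40%) and in 1 of 18 windows of mitotic genes (5.56%, Cdk1). It was in 1.23% of the windows of all genes tested and in 0.813% of all 32851 windows. The CHR element was in 1 of 15 replication windows (6.67%, Mcm2) and in 12 of 18 mitotic windows (66.7%), against 13.4% for the genes tested and 17.9% of all windows. The CCAAT box was in 10 of 15 (66.7%) and 16 of 18 (88.9%), against 37.4% in both backgrounds. All 12 mitotic windows with a CHR element also held a CCAAT box, a pair found in 5.23% of the windows of genes tested. A match describes the letters and is no evidence of binding in these cells. An annotated start need not be the main start of a gene. A window without a match, as for E2f1, therefore does not show that the gene lacks the motif.

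**Figure D1:**
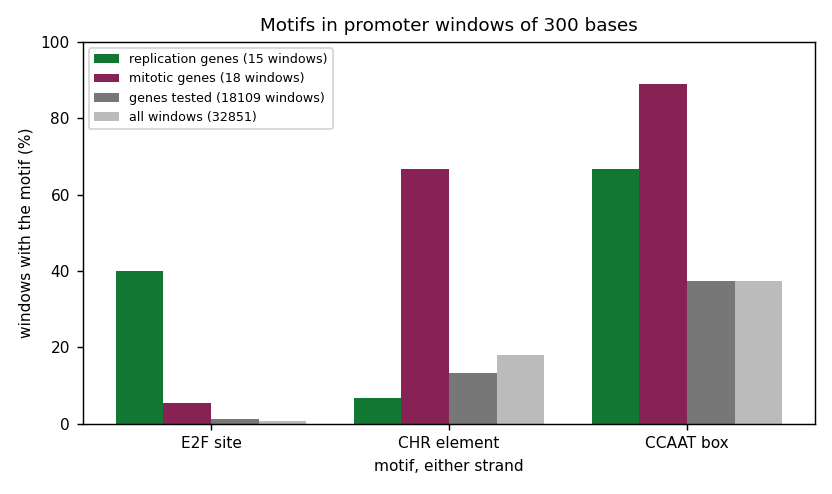
Share of promoter windows of 300 bases (vertical axis, percent) that hold each motif on either strand, for replication genes, mitotic genes, all genes tested and all windows. The E2F bars are highest for replication genes (40%) and the CHR bars for mitotic genes (66.7%).

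For the replication genes, the 200 bases before the start of Mcm5 (chr8:75109309-75109508, plus strand), Mcm6 (chr1:128359706-128359905, minus strand) and Pola1 (chrX:93632156-93632355, minus strand) are printed, the members whose E2F site lies before the start. The windows of Mcm5 and Pola1 end at an annotated start other than the one listed for the whole gene. Capitals mark E2F sites and CCAAT boxes on either strand.
Mcm5: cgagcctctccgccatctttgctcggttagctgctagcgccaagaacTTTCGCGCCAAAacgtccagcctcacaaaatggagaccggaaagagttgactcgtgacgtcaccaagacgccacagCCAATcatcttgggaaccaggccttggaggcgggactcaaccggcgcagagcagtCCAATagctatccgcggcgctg
Mcm6: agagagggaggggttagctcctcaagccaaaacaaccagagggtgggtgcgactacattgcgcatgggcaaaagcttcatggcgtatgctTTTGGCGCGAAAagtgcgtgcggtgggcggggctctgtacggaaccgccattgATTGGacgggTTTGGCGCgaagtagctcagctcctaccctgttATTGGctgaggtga
Pola1: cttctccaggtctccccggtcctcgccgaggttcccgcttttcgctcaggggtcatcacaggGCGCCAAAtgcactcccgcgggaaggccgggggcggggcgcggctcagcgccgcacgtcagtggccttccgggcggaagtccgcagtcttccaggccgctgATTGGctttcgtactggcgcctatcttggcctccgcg
In Mcm5 and in Mcm6, the run of 12 capitals holds 2 E2F sites on opposite strands that share 4 bases, and Mcm6 has a further site nearer to the start, at -47. The single site of Pola1 starts at -138 and reads on the other strand. E2F sites of Mcm3, Mcm7 and Cdt1 lie after the start, at 39, 17 and 33.

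For the mitotic genes, Cdc20 (chr4:118437344-118437543, minus strand), Cks1b (chr3:89418292-89418491, minus strand) and Ube2c (chr2:164769729-164769928, plus strand) are printed, because their CHR element lies before the start and they are among the members with the widest spread between mice (Cdc20) or the largest genotype differences (Cks1b, Ube2c). Capitals mark CHR elements (TTTGAA, or TTCAAA on the other strand) and CCAAT boxes.
Cdc20: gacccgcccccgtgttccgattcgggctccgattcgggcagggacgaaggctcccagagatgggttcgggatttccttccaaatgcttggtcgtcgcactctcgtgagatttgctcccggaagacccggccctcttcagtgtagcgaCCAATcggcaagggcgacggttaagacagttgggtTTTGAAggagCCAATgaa
Cks1b: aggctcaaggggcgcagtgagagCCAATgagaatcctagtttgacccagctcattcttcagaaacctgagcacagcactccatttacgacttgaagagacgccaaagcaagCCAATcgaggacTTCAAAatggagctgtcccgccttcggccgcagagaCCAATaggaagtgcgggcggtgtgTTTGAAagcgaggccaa
Ube2c: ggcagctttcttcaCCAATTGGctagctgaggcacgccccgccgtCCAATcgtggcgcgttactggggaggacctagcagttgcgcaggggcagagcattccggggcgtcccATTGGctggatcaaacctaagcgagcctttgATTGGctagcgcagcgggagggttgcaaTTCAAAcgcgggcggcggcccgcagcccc
The CHR elements of these genes start at -18 in Cdc20, at -77 and -17 in Cks1b and at -29 in Ube2c. In Cks1b and Ube2c every CCAAT box lies upstream of the CHR element nearest to the start, while Cdc20 has one on either side of it, at -53 and -8.

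No member passed the limma test between genotypes. Of 38 members, 0 had a Benjamini-Hochberg adjusted p under 0.05 (smallest 0.853), as did 0% of all 18193 genes. An unadjusted p under 0.05 was found for 0 members (smallest 0.111) and for 3.79% of all genes. Both nTKO arrays lay above every nDKO array for 1 member, Mcm3, and for 8.13% of all genes. Both lay below for 0 members and for 4.71% of all genes. The counts of members are thus at or under the background in every one of these measures. Of the 38 differences, 33 were under 0.2 in size (86.8%, against 80.5% of all genes), and 37 were smaller than the range of the 3 nDKO mice (97.4%, against 72.3% of all genes). The exception was Tyms, whose nDKO values are equal.

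**Figure D2:**
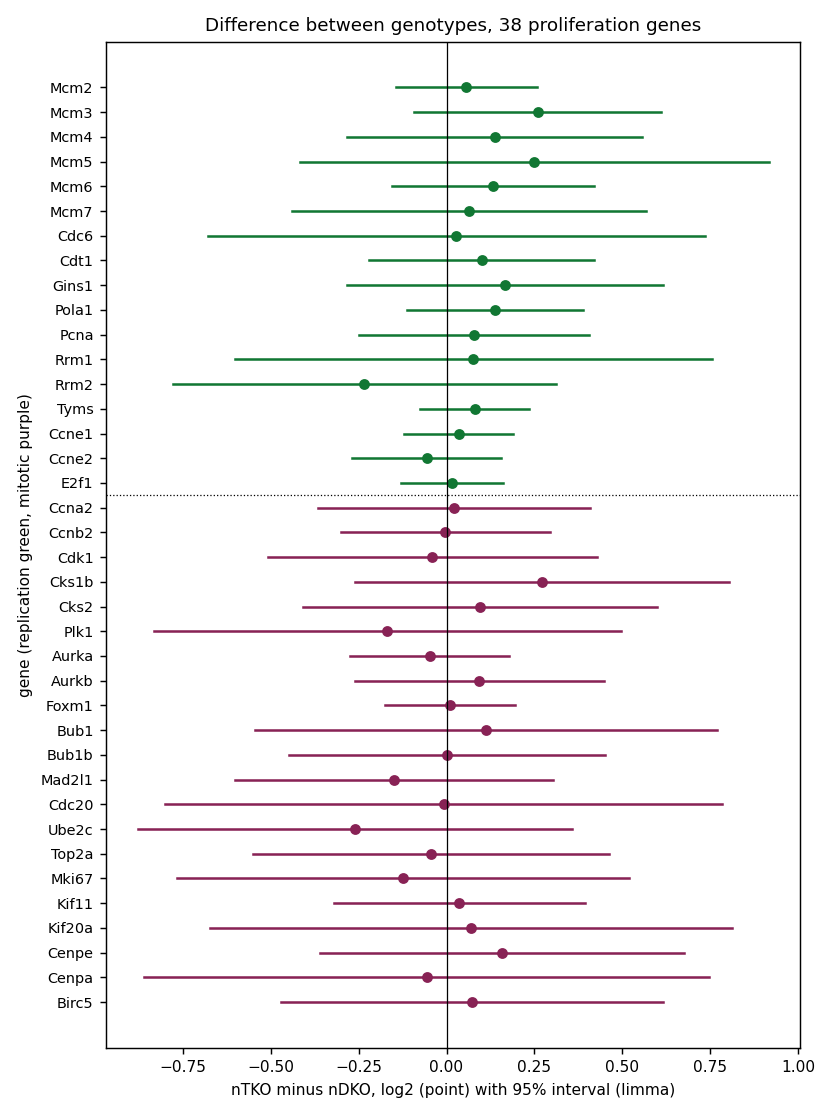
Log2 difference of nTKO minus nDKO (horizontal axis) of the 38 members, by gene, with the 95% interval of the limma fit (3 nDKO and 2 nTKO mice). Every interval includes 0, and the points lie between -0.26 and 0.27.

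The 6 subunits of the MCM helicase, the motor that unwinds DNA ahead of the fork, all had a higher mean in nTKO cells, with a median difference of 0.13. Mcm3 was at 7.42, 7.26 and 7.04 in nDKO cells and at 7.48 and 7.52 in nTKO cells. Its nTKO values were the highest of the 5, by a margin of 0.06 over nDKO 1, and the difference was 0.26 (SE 0.13, 95% interval -0.091 to 0.61, limma adjusted p = 0.853). Its 4 other probe sets gave 0.26, 0.27, -0.05 and -0.03, so they do not all show it. The probe set used for Mcm3 is of a kind whose probes may also bind related transcripts, as it is for 9 members in all. Mcm5 was at 8.74, 8.30 and 7.98 in nDKO cells and at 8.56 and 8.62 in nTKO cells. The highest value was that of nDKO 1 and the lowest that of nDKO 3, with both nTKO mice between them (0.25, 95% interval -0.42 to 0.92, limma adjusted p = 0.863). Mcm6 was at 9.0, 9.19 and 8.94 in nDKO cells and at 9.10 and 9.25 in nTKO cells (0.13, 95% interval -0.16 to 0.42). Here nTKO 2 was highest and the groups overlapped. Mcm2, Mcm4 and Mcm7 differed by 0.057, 0.14 and 0.065. On all 6 subunits nDKO 3 was the lowest array, and without it Mcm3, Mcm5, Mcm6 and Mcm4 differed by 0.16, 0.07, 0.08 and 0.04, Mcm2 by 0.005 and Mcm7 by -0.055. With log2 age as a covariate, Mcm4, Mcm5 and Mcm7 were at -0.15, -0.0015 and -0.059, so the shared direction of the 6 depends on the setting.

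Genes that license origins, start synthesis and hold the polymerase to DNA had 5 of 5 means higher in nTKO cells, with a median of 0.10. Pcna, the sliding clamp and a common marker of S phase, was at 11.35, 11.21 and 11.00 in nDKO cells and at 11.25 and 11.28 in nTKO cells. The nTKO values lay inside the nDKO range (0.078, SE 0.12, 95% interval -0.25 to 0.41). Pola1, the catalytic subunit of DNA polymerase alpha, was at 6.71, 6.63 and 6.54 in nDKO cells and at 6.67 and 6.86 in nTKO cells. Only nTKO 2 lay above the nDKO mice (0.14, 95% interval -0.11 to 0.39, limma adjusted p = 0.853), and the difference was 0.043 without it. Gins1, a subunit of the complex that activates the helicase, was at 6.33, 6.01 and 6.03 in nDKO cells and at 6.11 and 6.47 in nTKO cells (0.17, 95% interval -0.28 to 0.62). Again nTKO 2 was highest, while nTKO 1 lay among the nDKO mice. Cdt1, which loads the helicase, differed by 0.10. Cdc6, its loading partner, differed by 0.028, but its nTKO values were the lowest and the highest of the 5 (4.66 and 5.45, against 4.90, 5.09 and 5.09 in nDKO cells).

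Enzymes that supply nucleotides were split. Rrm2, the regulated subunit of ribonucleotide reductase, was at 8.63, 8.64 and 8.21 in nDKO cells and at 8.07 and 8.45 in nTKO cells. The lowest value was that of nTKO 1, and the difference of -0.23 (95% interval -0.78 to 0.31, limma adjusted p = 0.853) was -0.043 without that mouse. Its other probe sets gave -0.20 and -0.44. Rrm1, the partner subunit, differed by 0.077, with nDKO values from 8.74 in nDKO 3 to 9.50 in nDKO 1 and probe sets of both signs (-0.21 to 0.14). The probe set of Tyms, thymidylate synthase, gave 3.44 on all 3 nDKO arrays and 3.60 and 3.44 on the nTKO arrays, below the array median throughout, so it may not respond to the transcript. A probe set that lists Tyms with its pseudogene Tyms-ps, which the single-symbol rule leaves out, was at 7.52, 7.52 and 7.34 in nDKO cells and at 7.50 and 7.50 in nTKO cells.

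The G1/S regulators varied least, with a median range over the arrays of 0.11. All 3 lay below the median gene level (6.32), where change may be understated. The 6 replication genes below that level, these 3 included, had a median range of 0.18. E2f1, an activator of the replication genes, was at 5.51, 5.48 and 5.57 in nDKO cells and at 5.51 and 5.56 in nTKO cells. All 5 values lie within 0.09 of each other (0.015, SE 0.053, 95% interval -0.13 to 0.16, limma adjusted p = 0.967). Cyclins E1 and E2, the partners of Cdk2 at entry into S phase, differed by 0.035 (Ccne1) and -0.057 (Ccne2), and the probe set of Ccne2 was below the array median on all arrays. In these 3 genes nDKO 3 was the lowest array in 0, unlike in the helicase.

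**Figure D3:**
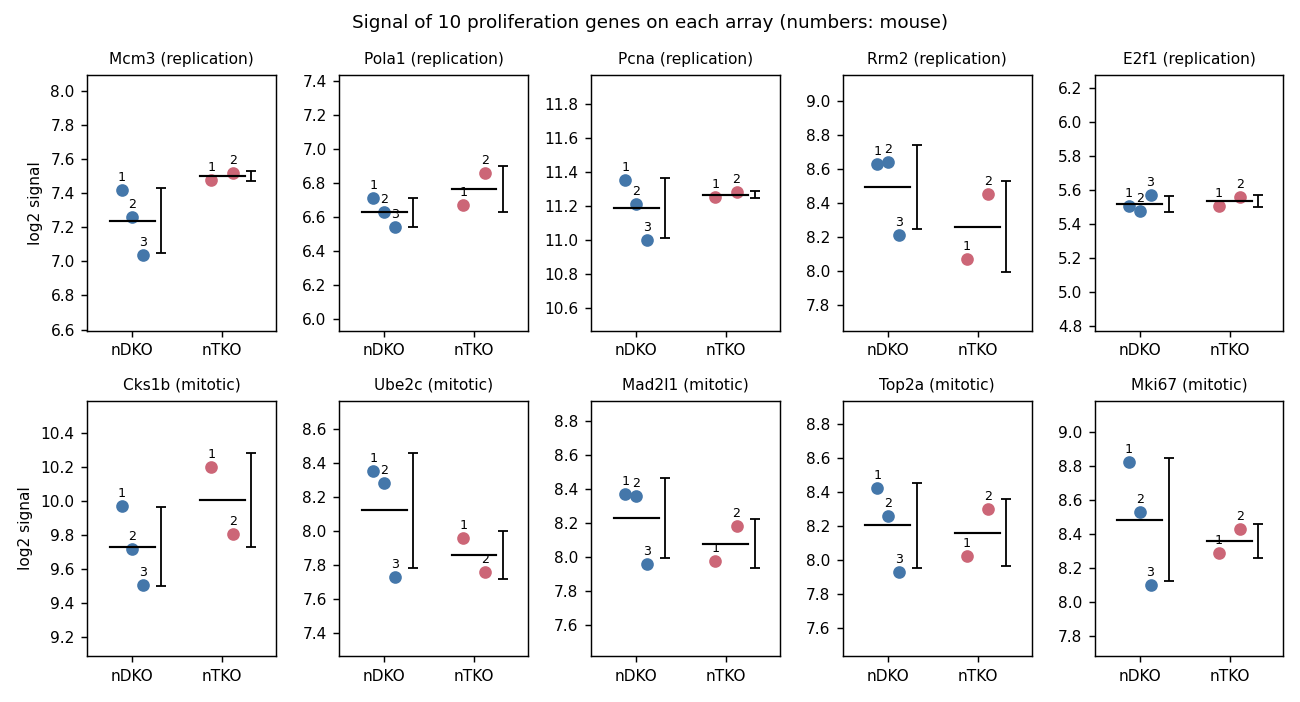
Log2 signal (vertical axis, each panel 1.5 units high) of 5 replication and 5 mitotic genes on each array, by genotype. Numbers give the mouse, horizontal lines the mean and bars beside it the SD of 3 nDKO and 2 nTKO mice. The groups are separate only for Mcm3, and nDKO 3 is the lowest point in 8 of the 10 panels.

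The mitotic cyclins, Cdk1 and its small subunits had 3 of 5 means higher in nTKO cells. Cks1b, a Cdk1-binding protein that also serves the ligase for p27, was at 9.97, 9.72 and 9.51 in nDKO cells and at 10.20 and 9.81 in nTKO cells. The highest value was that of nTKO 1, while nTKO 2 lay below nDKO 1 (0.27, SE 0.20, 95% interval -0.26 to 0.80, limma adjusted p = 0.853). It was 0.077 without nTKO 1, and its second probe set did not overlap between groups (8.05, 7.96 and 7.79 against 8.43 and 8.09). Cks2, Ccna2 (cyclin A2), Ccnb2 (cyclin B2) and Cdk1 itself differed by 0.095, 0.022, -0.0033 and -0.04. On all 5 of these genes nDKO 3 was the lowest array.

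The kinases that drive entry into mitosis and spindle assembly were split, 2 higher and 2 lower with Foxm1 included. Plk1 was at 6.88, 7.10 and 6.49 in nDKO cells and at 6.43 and 6.88 in nTKO cells, so that each group held a low mouse (-0.17). Aurora kinases A and B (Aurka, Aurkb) differed by -0.048 and 0.093. Foxm1, which activates mitotic genes, varied by 0.13 over all arrays (6.66, 6.79 and 6.68 against 6.76 and 6.68) and differed by 0.01.

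Genes of the spindle checkpoint and of the anaphase-promoting complex had 2 of 5 means higher in nTKO cells. Ube2c, the ubiquitin-conjugating enzyme of that complex, was at 8.35, 8.28 and 7.73 in nDKO cells and at 7.96 and 7.76 in nTKO cells. Both nTKO mice lay between nDKO 3 and the other nDKO mice (-0.26, 95% interval -0.88 to 0.36, limma adjusted p = 0.853), and the difference was -0.455 without nDKO 3 and -0.145 without nDKO 1. Mad2l1, which holds Cdc20 back until chromosomes are attached, was at 8.37, 8.36 and 7.96 in nDKO cells and at 7.98 and 8.18 in nTKO cells (-0.15, 95% interval -0.60 to 0.30). The same single nDKO mouse was low. Bub1, a checkpoint kinase, was at 5.75, 5.56 and 5.02 in nDKO cells and at 5.58 and 5.53 in nTKO cells (0.11, 95% interval -0.55 to 0.77). Bub1b, which encodes the checkpoint protein BubR1, differed by 0.0017, and Cdc20, the activator of the complex, by -0.0083.

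Genes of chromosomes, kinetochores and spindle motors had 4 of 7 means higher in nTKO cells. Mki67, the Ki-67 protein that coats mitotic chromosomes and is the usual histological mark of cycling cells, was at 8.82, 8.53 and 8.10 in nDKO cells and at 8.29 and 8.43 in nTKO cells. The nTKO values lay inside the nDKO range (-0.12, SE 0.24, 95% interval -0.77 to 0.52, limma adjusted p = 0.926), and the difference was 0.045 without nDKO 1 and -0.315 without nDKO 3. Top2a, the topoisomerase that untangles sister chromatids, was at 8.42, 8.26 and 7.93 in nDKO cells and at 8.02 and 8.30 in nTKO cells (-0.043, 95% interval -0.55 to 0.46). Its nTKO values too lay between the extreme nDKO mice. The kinetochore motor Cenpe and the spindle motors Kif11 and Kif20a differed by 0.16, 0.037 and 0.07. The centromeric histone Cenpa differed by -0.057 and Birc5, survivin, by 0.072.

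Set against each other, 15 of 17 replication genes had a higher mean in nTKO cells, with a median difference of 0.078 (a factor of 1.06), a lowest value of -0.23 and a highest of 0.26. Of 21 mitotic genes, 11 were higher and 10 lower, with a median of 0.0017 and a range from -0.26 to 0.27. Over all genes tested, 60.0% had a higher mean in nTKO cells and the median was 0.028, so a tilt towards higher means was present over all genes too. The median of the replication genes exceeded that of the mitotic genes by 0.077. On single arrays, the median deviation of replication genes minus that of mitotic genes was -0.124, -0.12 and 0.106 in nDKO 1, 2 and 3 and -0.026 and 0.064 in nTKO 1 and 2. The groups overlap, since nDKO 3 lies above both nTKO mice. Leaving out nDKO 3 turned the median of the mitotic genes to -0.10, with 1 higher and 20 lower, and left replication genes at 0.04, with 12 higher and 5 lower. Without nDKO 1, the medians were 0.16 for replication genes and 0.125 for mitotic genes. With log2 age as a covariate, 9 of the 17 replication genes were higher and 8 lower (median 0.0033).

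The members varied between mice of 1 genotype, and the range of the 3 nDKO mice exceeded the genotype difference in 37 of 38 (72.3% of all genes). A range of 3 values and a difference of 2 means are unlike measures, so this count gives no share of the variation. The array nDKO 3 was the lowest of the 5 for 29 of 38 members (76.3%), 10 of 17 replication genes and 19 of 21 mitotic genes, against 12.8% of all genes. The array nDKO 1 was the highest for 20 of 38 members (52.6%), 6 replication and 14 mitotic genes, against 17.9% of all genes. Among genes at or above the median gene level (6.32), it was the highest for 5 of 11 replication and 9 of 16 mitotic genes, against 25.5% of all. All 5 genes of the checkpoint and anaphase-promoting group and all 7 of the chromosome and motor group were highest in nDKO 1 and lowest in nDKO 3. The array nTKO 2 was the lowest for 0 members, against 17.45% of all genes. It was the highest for 5 members (13.2%), all of them replication genes, against 15.4% of all genes. Genes of 1 array share the library and its normalization, so these counts describe 5 mice and are not independent observations.

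The signal in nDKO 1 exceeded that in nDKO 3 by a median of 0.46 for mitotic genes (1.38-fold) and 0.30 for replication genes (1.23-fold), and by -0.01 for all genes. The widest spreads were chosen for mention after their values were seen. Cenpa was at 7.57 in nDKO 1, 6.99 in nDKO 2, 6.67 in nDKO 3 and 7.11 and 6.93 in nTKO cells, a 1.87-fold range. Cdc20 was at 9.05, 8.63 and 8.19 in nDKO cells and at 8.77 and 8.46 in nTKO cells, a 1.82-fold range. Kif20a, a motor of cytokinesis, was at 5.97, 5.84 and 5.17 in nDKO cells and at 5.73 in both nTKO mice. In all 3 genes the nTKO mice sit between the nDKO extremes. The median range over 5 arrays was 0.54 for mitotic genes and 0.35 for replication genes, against 0.31 for all genes. Among genes at or above the median gene level (6.32), it was 0.515 for mitotic and 0.43 for replication genes, against 0.35 for all.

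**Figure D4:**
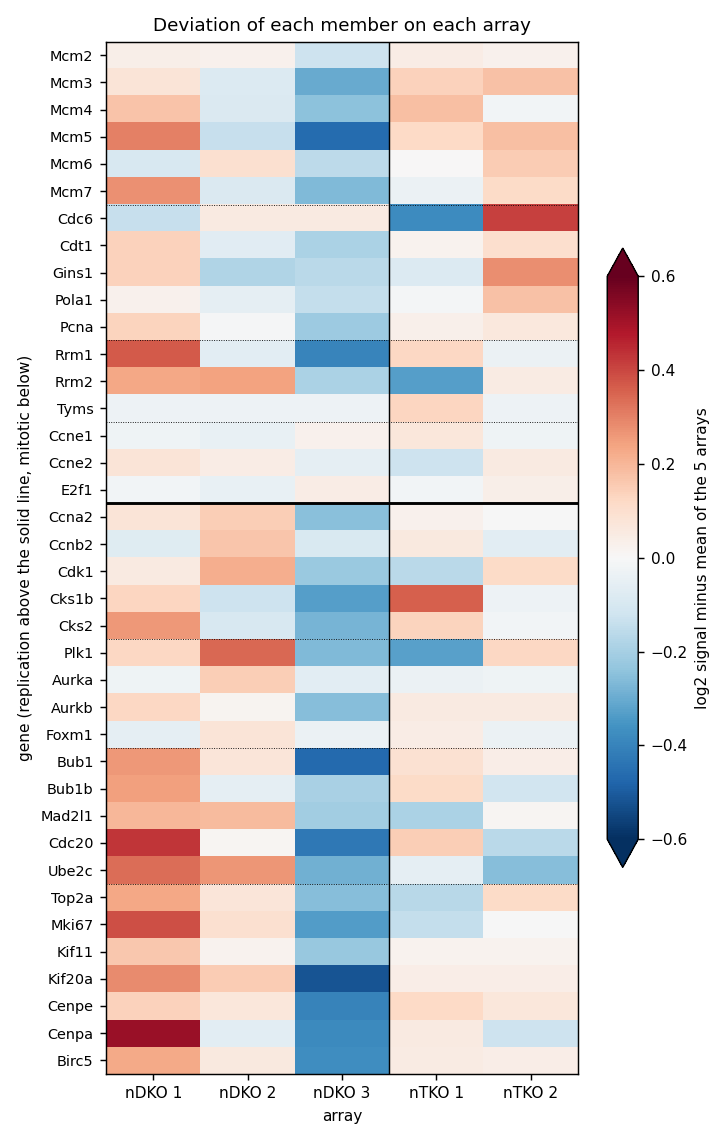
Log2 signal of each member on each array minus the mean of the 5 arrays (colour), with replication genes above the solid line, mitotic genes below it and dotted lines between role groups. The column of nDKO 3 is mostly blue (lowest array for 29 of 38 genes) and that of nDKO 1 mostly red (highest for 20).

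Markers of other cells also differed between the same arrays. Of 6 macrophage markers (Cd68, Adgre1, C1qa, C1qb, Csf1r, Cd14), 5 were highest in nDKO 3, and their median signal was 8.46, 7.70 and 9.28 in nDKO 1 to 3 and 8.46 and 7.77 in nTKO 1 and 2. Their summed signal, on the log2 scale, lay between 11.53 and 12.20 in nDKO and between 11.55 and 12.21 in nTKO cells, and none lay below the array median. All 5 seminal vesicle transcripts (Svs2, Svs4, Svs5, Svs6, Sva) were highest in nDKO 3 and lowest in nDKO 1, with medians of 8.86, 12.57 and 13.61 in nDKO 1 to 3 and 12.37 and 12.77 in nTKO 1 and 2. Their summed signal lay between 13.05 and 15.70 in nDKO and between 14.60 and 14.85 in nTKO cells. The medians of the 8 squamous markers were highest in nDKO 1 and nTKO 1, at 10.85 and 9.15 against 5.52 to 6.14 on the other arrays. Their summed signals were 11.84 to 14.50 in nDKO and 10.94 to 14.04 in nTKO cells. Not every marker had this order, as Sprr3 was high only in nDKO 1 (7.03, and 4.98 in nTKO 1). Krt6a was bright on all arrays (10.66 to 12.61). Neutrophil markers (5 measured of 6) were all highest in nTKO 1, with summed signals of 10.64 to 11.41 in nDKO and 9.48 to 13.90 in nTKO cells. All 3 measured B cell markers lay below the array median on every array, as did 4 of 6 fibroblast and at least 3 of 4 endothelial markers. The fibroblast markers Col1a2 and Dcn lay above it on every array. Dcn was at 7.87, 9.39 and 9.03 in nDKO cells and at 6.41 and 9.52 in nTKO cells. Summed fibroblast signals were 8.36 to 9.59 in nDKO and 7.63 to 9.71 in nTKO cells. Of 5 T cell markers measured, 4 were lowest in nDKO 1, the lowest array for 30.6% of all genes. The median range of these T cell markers over the 5 arrays was 0.18, against 0.31 for all genes. The part of these cells in the order of the members was not tested.

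The mice also differ in age, and the part of age in the order of the arrays was not tested. In nDKO 2 and nDKO 3, both 10.71 weeks old, the median deviation was 0.074 in nDKO 2 and -0.266 in nDKO 3 for mitotic genes and -0.046 and -0.16 for replication genes. In the oldest mouse, nTKO 1, it was 0.046 for mitotic and 0.02 for replication genes. Between the mice closest in age across genotypes, nTKO 2 against nDKO 1, the median difference was -0.01 for replication genes and -0.16 for mitotic genes, a difference of 0.15 with no replicate check, and 6 replication genes were higher and 9 lower. This pair also differs in squamous keratins (Krt10 at 6.90 in nTKO 2 and 13.03 in nDKO 1). The array nDKO 1 was the highest of all for 14 of the 21 mitotic genes. With log2 age as a covariate, where replication genes were split as given above, 2 mitotic genes were higher and 19 lower, with a median of -0.12.

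Further genes of the same pathways, from a list that holds no member, were also often lowest in nDKO 3, which was the lowest array for 12.8% of all genes. Of 26 other replication genes measured, 15 were higher, 10 lower and 1 equal in nTKO cells (median 0.046), 0 with a limma adjusted p under 0.05, and nDKO 3 was lowest for 16. Gmnn, geminin, the inhibitor of Cdt1, was at 8.04, 8.14 and 7.90 in nDKO cells and at 7.90 and 7.54 in nTKO cells, and the lower value of the pair lay below all nDKO mice (-0.31, limma adjusted p = 0.853). Chaf1b, a histone chaperone at the fork, was at 7.07, 6.94 and 6.73 against 7.20 and 7.12, with no overlap (0.25), and Mcm10 differed by 0.12. Chaf1b was the 1 gene of these 26 with both nTKO mice above every nDKO mouse (8.13% of all genes). Of 35 other mitotic genes, 16 were higher and 19 lower (median -0.013), 0 with an adjusted p under 0.05, and nDKO 3 was lowest for 18. Both nTKO mice lay below every nDKO mouse for 3 of these 35 (4.71% of all genes) and above for 0 (8.13% of all genes). They were Incenp, the scaffold of the complex that Aurkb and Birc5 form (7.62, 7.57 and 7.71 against 7.29 and 7.49, -0.24), Gtse1, a microtubule-binding protein (-0.33), and Kif23, a motor of cytokinesis (-0.22). None of these reached an unadjusted limma p under 0.05, with Incenp at 0.051.

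**Figure D5:**
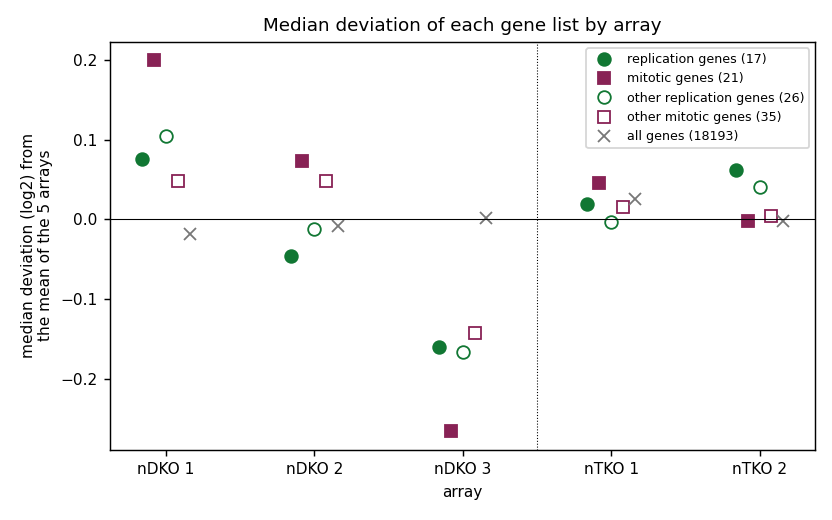
Median deviation from the mean of the 5 arrays (vertical axis, log2) of the members and of the further genes of each pathway, by array. Both member lists and both further lists are lowest in nDKO 3, where mitotic members are at -0.266 and all genes at 0.002.

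Among the factors that control these genes the order of the arrays was mixed. Of 18 E2F, DREAM and MuvB genes, 13 were higher and 5 lower in nTKO cells (median 0.046), 0 with a limma adjusted p under 0.05, and nDKO 3 was lowest for 5 and highest for 3. The MuvB subunit Lin37 was at 7.11, 7.15 and 7.11 in nDKO cells and at 6.93 and 6.96 in nTKO cells, a small difference with no overlap (-0.18, SE 0.049, limma adjusted p = 0.853). Both nTKO mice lay below every nDKO mouse for this 1 gene of the 18 and for 4.71% of all genes. The MuvB subunit Lin9 differed by -0.13 and the repressor E2f8 by 0.23. Of 6 inhibitors of cyclin-dependent kinases, 2 were higher and 4 lower (median -0.14), 0 with an adjusted p under 0.05. Cdkn2d, p19, was at 7.20, 7.63 and 7.20 in nDKO cells and at 7.05 and 7.02 in nTKO cells, with no overlap (-0.31). It was the 1 inhibitor of the 6 with both nTKO mice below every nDKO mouse (4.71% of all genes). Cdkn1a, p21, was at 10.92, 9.86 and 10.16 in nDKO cells and at 10.54 and 9.15 in nTKO cells, high in nDKO 1 and nTKO 1 and with a range over arrays of 1.77 (-0.47). Cdkn2c, p18, differed by 0.33.

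Probe sets of the same gene were set side by side as a check on these values. Over the 85 member probe sets, 0 had a limma adjusted p under 0.05 (smallest 0.799), as did 0% of the 45037 probe sets. An unadjusted limma p under 0.05 was found for 1 member probe set, against 3.8% of all. The groups did not overlap in 4, higher in nTKO cells, against 7.02% of all, and in 1, lower, against 5.17% of all. Of the higher ones, 2 belong to Mcm3, 1 to Cks1b and 1 to Rrm1, and the lower one is a dim probe set of Aurka (3.13, 3.16 and 3.28 against 3.05 and 3.01), which is also the one with the small p. Of 27 members with more than 1 probe set, 18 had differences of 1 sign in all of them, among them Rrm2, Mcm5, Cks1b and Top2a. On each array, 23 or 24 of the 85 lay below the array median, where a signal may not follow the transcript.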

How the data were processed

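The table the authors deposited holds log2 signals with 2 decimals for each probe set on each array. RMA and the Transcriptome Analysis Console made them, per the submitters' processing notes. The sources used here give no version of either. The first of these equalizes the distributions of all arrays and draws dim probe sets towards a floor, so a change common to most genes is hidden and dim members understate change. The table has no read depth, and the 5 arrays limit the precision. No scanner files were used, so scan batches were not examined.

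Symbols came from the platform annotation (34945 probe sets with 1 symbol, 932 with several, 9160 with none). Of the members, 0 symbols needed updating against the GRCm38.p6 gene table. The comparison of nTKO with nDKO used limma 3.58.1 in R 4.3.3 (lmFit and eBayes with an intensity trend, all 18193 genes, no filter or covariate, two-sided, Benjamini-Hochberg threshold 0.05), once over genes and once over all probe sets, and the fit was tested on simulated data. Each gene had 3 residual degrees of freedom and 1.23 from the prior. Lists and promoters received counts and medians without a test. P-values set the difference between genotypes against the spread between mice of a genotype, moderated by that of all genes.

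The members and gene lists were chosen with earlier results of these data known. Values per array are given for members whose groups do not overlap and for the 10 with the smallest unadjusted p. They are also given for the highest and lowest signal of each list (Pcna, Tyms, Cks1b, Bub1), Mki67, Pcna, Top2a, E2f1 and Pygo2. Those of Cenpa, Cdc20, Kif20a, Plk1, Foxm1 and Cdc6 were added after their values were seen. Smad4 and up to 3 genes per further list, by unadjusted p, have values per array or the difference alone. Alternatives were quantile normalization, median centring, only genes at or above the median level (6.32), other eBayes settings, array weights, log2 age, the replicate block, other choices of probe set, and leaving out mice. Some items are not reported here.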

Additional observations from a re-analysis of the deposited data

How the results depend on the processing

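In the 16 alternatives that allow a test, 0 of the members tested had a limma adjusted p under 0.05 (smallest 0.107, Tyms). The other 2, nTKO 2 against nDKO 1 and the nDKO group reduced to nDKO 2, give values only. The median difference of the replication genes (0.078) was 0.185 with nDKO 1 and nTKO 1 both left out, where the nTKO group is 1 mouse assumed to vary like the others, and that of the mitotic genes (0.0017) was 0.115, with 17 higher and 4 lower. With 1 mouse left out, the first lay between 0.04 and 0.16, the second between -0.10 (without nDKO 3) and 0.125 (without nDKO 1), and replication minus mitotic between 0.01 and 0.14. Replicate numbers are names of separate mice. Deviations of equally numbered arrays correlated across genes at 0.42 and 0.34, and the fit with the replicate number as a block gave 0.04 for replication and -0.10 for mitotic genes, equal to leaving out nDKO 3, which has no partner. Leaving out both nDKO 1 and nDKO 3 (mitotic median -0.07), and avoiding probe sets that may bind other transcripts, were chosen after seeing the data.

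Most members have no stable sign. It held in every alternative for 3 genes, Mcm3 (0.10 to 0.37), Pola1 (0.043 to 0.275) and Ube2c (-0.59 to -0.145), and 32 of 38 changed it in at least 1 tested alternative, 0 of them past the threshold. With log2 age as a covariate, the changed log2 differences were Mcm4 -0.15, Mcm5 -0.0015, Mcm7 -0.059, Pcna -0.021, Rrm1 -0.31, Tyms -0.019, Ccne1 -0.014, Ccne2 0.017, Ccna2 -0.059, Cdk1 0.10, Plk1 0.0701, Aurkb -0.025, Bub1 -0.14, Bub1b -0.32, Kif11 -0.091, Kif20a -0.15, Cenpe -0.019, Birc5 -0.12, Foxm1 -0.0036, Cks1b -0.14 and Cks2 -0.21. With nDKO 1 and nTKO 1 both left out they were Rrm2 0.025, Ccne1 -0.015, Ccne2 0.06, Cdk1 0.12, Cdc20 0.05, Plk1 0.085, Mad2l1 0.02, Top2a 0.20, Mki67 0.12, Cenpa 0.10 and Foxm1 -0.055. With the replicate block they were Mcm7 -0.055, Pcna -0.015, Rrm1 -0.10, Ccna2 -0.10, Aurkb -0.015, Bub1 -0.10, Bub1b -0.095, Kif11 -0.07, Kif20a -0.17, Cenpe -0.01, Birc5 -0.10, Foxm1 -0.005 and Cks2 -0.025. Array weights gave Cdc6 -0.019, Cdc20 0.12, Top2a 0.017, Cenpa 0.11 and Foxm1 -0.015, the mean over probe sets Ccna2 -0.043 and Cenpe -0.083, and Bub1b was -0.0083 after median centring and -0.0052 after quantile normalization. With 1 mouse left out, the members that changed sign ranged as follows, Mcm7 -0.055 to 0.21, Pcna -0.015 to 0.16, Rrm1 -0.10 to 0.28, Cdc6 -0.37 to 0.42, Gins1 -0.013 to 0.35, Ccne1 -0.01 to 0.08, Ccne2 -0.15 to 0.033, E2f1 -0.01 to 0.04, Ccna2 -0.10 to 0.10, Ccnb2 -0.063 to 0.08, Cdk1 -0.18 to 0.10, Cdc20 -0.23 to 0.20, Plk1 -0.39 to 0.057, Aurka -0.09 to 0.015, Aurkb -0.015 to 0.17, Bub1 -0.10 to 0.27, Bub1b -0.11 to 0.12, Top2a -0.18 to 0.097, Mki67 -0.32 to 0.045, Kif11 -0.07 to 0.12, Kif20a -0.17 to 0.23, Cenpe -0.01 to 0.26, Cenpa -0.26 to 0.19, Birc5 -0.10 to 0.20, Foxm1 -0.03 to 0.05 and Cks2 -0.025 to 0.24. The 95% intervals of most members reach beyond 0.3 on at least one side. They take no account of the 18193 genes tested. After that adjustment even Pygo2 (-1.84, limma adjusted p = 0.853) was not called. The size of difference that could be detected was not determined, so 0 calls do not show equal levels in the genotypes.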
